A study of Arabidopsis thaliana with 12 samples.

Results

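The genes described here are 4 nuclear genes for chloroplast carbon metabolism in Arabidopsis thaliana. SBPASE (AT3G55800) and PRK (AT1G32060) encode Calvin cycle enzymes, AT5G58330 encodes the plastid NADP-malate dehydrogenase, and AT5G17630 encodes a plastid sugar phosphate translocator. Each was measured by 1 of the 3439 probes of the array, and each of these probes carried 1 gene symbol, as 692 probes did. The 4 were chosen with their values in both genotypes known, to set carbon fixation against the export of reducing power and carbon. Their levels are therefore given as a description. Where the text counts how many of them were past a threshold applied to all probes, the count describes the choice and is no test of the 4 genes. The study held 12 arrays of total RNA, 6 of the psan mutant and 6 of wild type (WT), both in ecotype Columbia 0. The psan mutant is described as without PSI-N, one of the small proteins that photosystem I carries on the lumen side of the thylakoid membrane. The sources used here give no tissue, age, growth conditions or kind of psan allele. Whether the 6 samples of a genotype were grown as different plants is not recorded either. All p-values therefore reflect array-to-array spread, part or all of which may be technical.

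Photosystem I passes electrons to ferredoxin, which feeds the reduction of NADP and, through ferredoxin-thioredoxin reductase, the thioredoxins that switch on several stromal enzymes in the light. The Calvin cycle spends NADPH and ATP to fix carbon dioxide. Within it, sedoheptulose bisphosphatase commits carbon to the regeneration of the acceptor, and phosphoribulokinase makes that acceptor, ribulose 1,5-bisphosphate. Both enzymes are activated by reduced thioredoxin. When NADPH is in excess, NADP-malate dehydrogenase, itself switched on by thioredoxin, turns oxaloacetate into malate, which leaves the chloroplast and carries reducing power with it. This route is called the malate valve. Translocators of the plastid phosphate family exchange phosphorylated compounds for inorganic phosphate across the inner envelope. The direction of transport by the product of AT5G17630 was not measured here. Its place on the export side comes from how the genes were chosen and is not a result.

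PSAN (AT5G64040), which encodes PSI-N, was read as a check of the labels and had a deposited intensity of 0.176 ± 0.0697 in psan and 6.30 ± 1.27 in WT (SD, n = 6 each). Arrays of a genotype were not all alike. The psan arrays had 213 to 371 probes at exactly 0 and WT arrays 3 to 6 had 161 to 215, while WT arrays 1 and 2 stood apart with 499 and 521. The median log2 intensity of the probes above 0 ran from -1.89 to -1.68 over the psan arrays and from -2.32 to -2.27 over WT arrays 3 to 6, and was -2.85 and -2.88 on WT arrays 1 and 2. Within each genotype, each of the 12 arrays correlated best with its partner among arrays 1 and 2, 3 and 4, and 5 and 6, by deviations from the genotype's mean across 2243 probes. For 5 of the 6 pairs r was 0.401 to 0.601, above all other couples of a genotype (at most 0.0928). For psan arrays 1 and 2 it was 0.0331, against at most -0.144 between either of them and the other psan arrays. Whether the arrays of a pair hold the same RNA was not tested, and counts are also given with pairs averaged. The number of arrays limits the precision. Since RNA was bulk, fewer cells of a type and less RNA per cell cannot be told apart. Of the 12 seed and root marker genes looked for, 0 had a probe with 1 gene symbol.

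AT5G58330, the malate valve enzyme, was higher in psan throughout. The deposited intensities were 3.64, 3.74, 4.36, 4.27, 4.46 and 4.07 on psan arrays 1 to 6, and 0.687, 0.709, 1.34, 1.14, 1.06 and 1.31 on WT arrays 1 to 6. The lowest psan array thus lay far above the highest WT array, and the 2 lowest values of all were those of WT arrays 1 and 2. The means were 4.09 ± 0.337 in psan and 1.04 ± 0.286 in WT (SD, n = 6 each), or 3.93 times as much in psan. After quantile normalisation, which gives every array the same distribution of values, the log2 fold change of psan over WT was 1.96 ± 0.17 (SE). Without WT arrays 1 and 2 it was 1.78. The rank of this probe within its array does not depend on how an array was scaled, and it stood at the 96.3 to 97.2 percentile of all probes on psan arrays and at the 85.2 to 89.9 percentile on WT arrays.

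AT5G17630, the translocator, was also higher in psan throughout. The deposited intensities were 1.25, 1.96, 0.967, 1.14, 2.06 and 1.87 on psan arrays 1 to 6, and 0.0662, 0.119, 0.384, 0.583, 0.414 and 0.390 on WT arrays 1 to 6. The genotypes did not overlap, but the WT arrays were uneven, with arrays 1 and 2 well below the other 4. The means were 1.54 ± 0.474 in psan and 0.326 ± 0.196 in WT (SD, n = 6 each), or 4.73 times as much in psan. The log2 fold change after normalisation was 2.06 ± 0.33 (SE), and 1.59 without WT arrays 1 and 2. By rank the probe lay between the 85.9 and 92.7 percentile on psan arrays and between the 40.9 and 77.9 percentile on WT arrays. WT arrays 1 and 2 were the lowest, at the 40.9 and 54.5 percentile, and the other 4 WT arrays lay between 69.5 and 77.9.

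SBPASE, the sedoheptulose bisphosphatase of the Calvin cycle, was lower in psan. Its deposited intensity was 0.446, 0.415, 0.753, 0.329, 0.479 and 0.500 on psan arrays 1 to 6, and 0.739, 0.799, 0.837, 0.846, 1.17 and 1.17 on WT arrays 1 to 6. Of the psan arrays, 5 lay below every WT array, and psan array 3 lay just above WT array 1. The means were 0.487 ± 0.144 in psan and 0.927 ± 0.192 in WT (SD, n = 6 each), or 0.525 times as much in psan. The log2 fold change after normalisation was -1.26 ± 0.23 (SE), and -1.21 without WT arrays 1 and 2. By rank the genotypes did not overlap, with the 61.6 to 82.1 percentile on psan arrays and the 84.0 to 87.9 percentile on WT arrays.

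PRK, the phosphoribulokinase of the same cycle, did not separate the genotypes. Its deposited intensity was 2.76, 2.07, 2.75, 2.53, 1.65 and 1.43 on psan arrays 1 to 6, and 1.93, 2.35, 1.17, 1.23, 1.11 and 0.947 on WT arrays 1 to 6. The overlap came from both sides, since WT arrays 1 and 2 were the highest of WT and psan arrays 5 and 6 the lowest of psan. The means were 2.2 ± 0.573 in psan and 1.46 ± 0.555 in WT (SD, n = 6 each), or 1.51 times as much in psan. The log2 fold change after normalisation was 0.52 ± 0.31 (SE). Without WT arrays 1 and 2 it was 0.87, and without psan arrays 5 and 6, a choice made after seeing the data, it was 0.81. Its rank ran from the 89.5 to the 95.2 percentile on psan arrays and from the 85.5 to the 94.3 percentile on WT arrays, so 3 psan arrays ranked above all WT arrays and none below all of them.

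**Figure D1:**
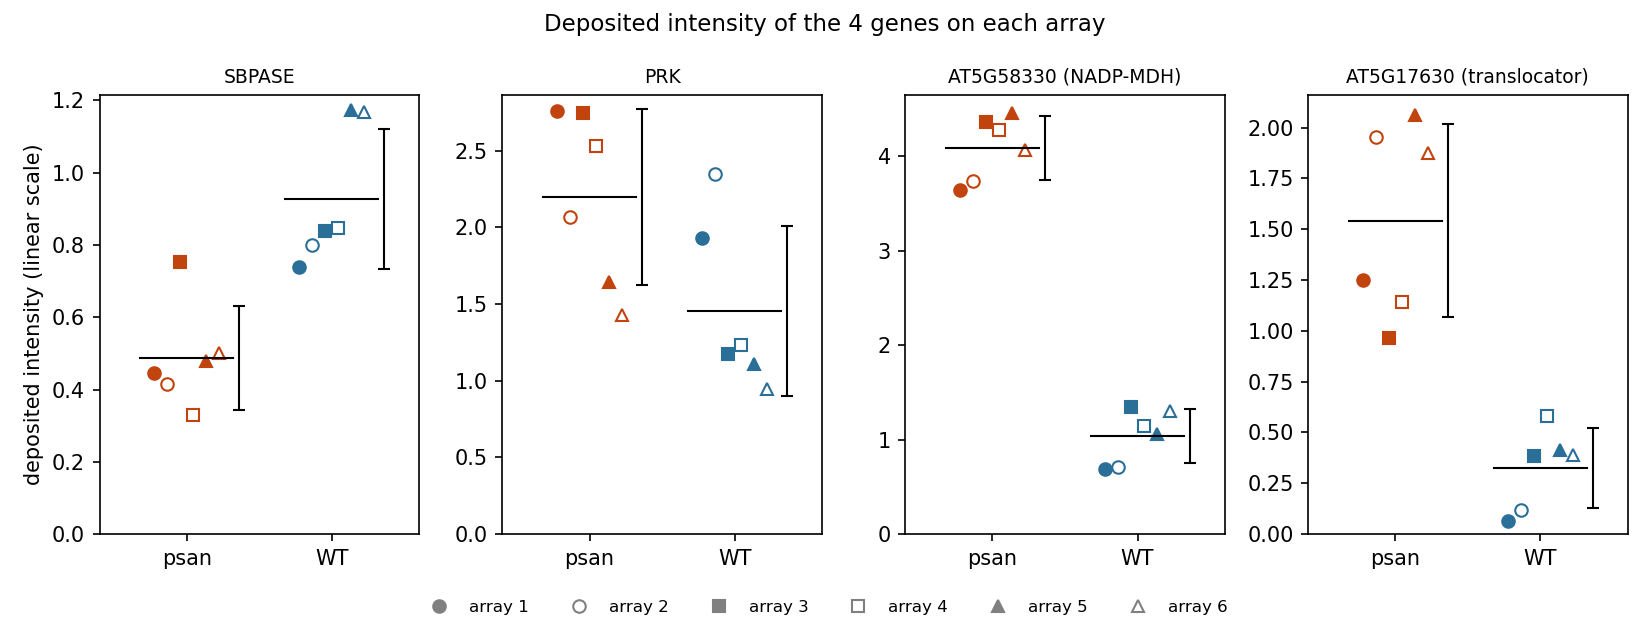
Deposited intensity (linear scale, from 0) of the 4 genes on the 6 psan and 6 WT arrays, with the mean (line) and SD (bar) of each genotype; marker shapes join arrays 1 and 2, 3 and 4, and 5 and 6. AT5G58330 and AT5G17630 do not overlap between genotypes, SBPASE overlaps through psan array 3 at 0.753, and PRK overlaps through WT arrays 1 and 2 and psan arrays 5 and 6.

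**Figure D2:**
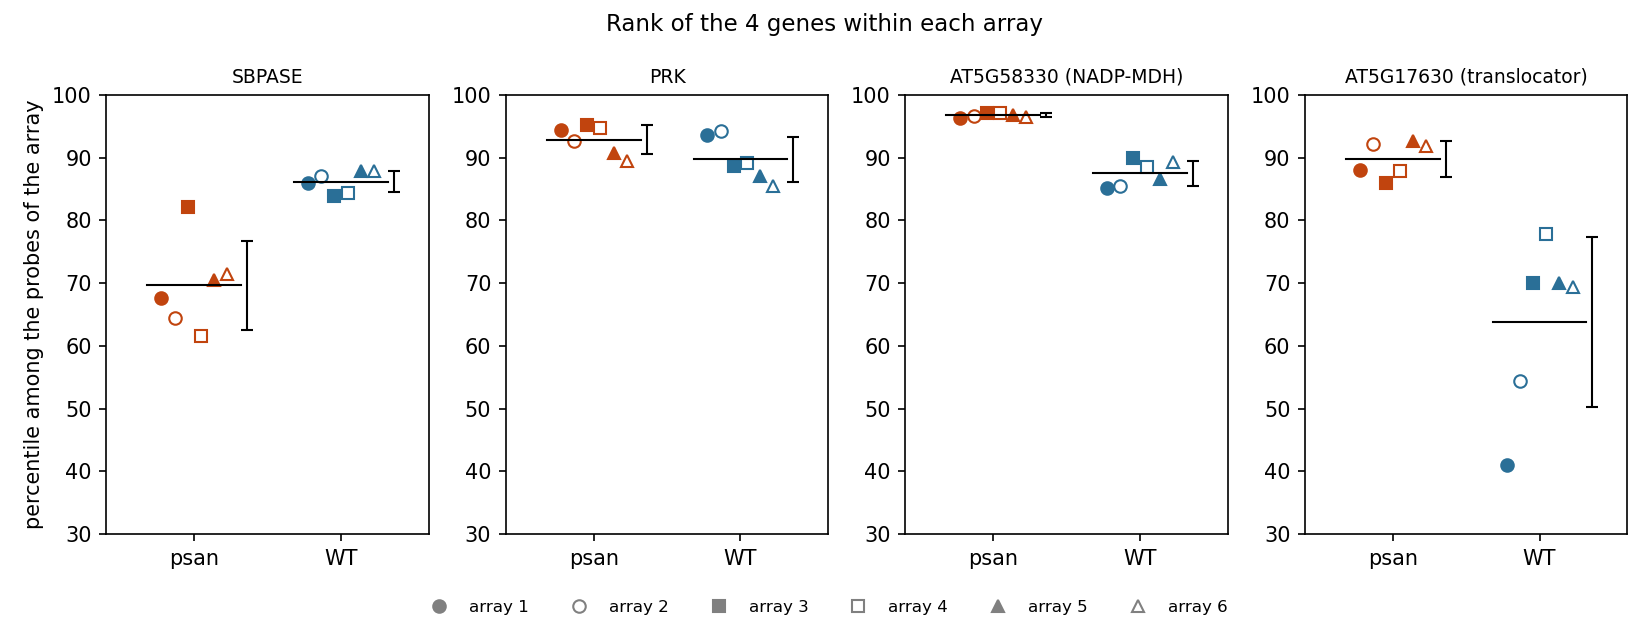
Percentile of each gene's probe among all 3439 probes of its array, with the mean and SD of each genotype; the axis starts at 30. On this scale SBPASE is lower and AT5G58330 and AT5G17630 are higher on all 6 psan arrays, and AT5G17630 spreads widely over WT, down to the 40.9 percentile on WT array 1.

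Across all 3376 probes tested with limma at an adjusted p under 0.05, 29.9% passed, 14.3% higher and 15.6% lower in psan. Of the 4 genes, 3 were past that threshold, AT5G58330 and AT5G17630 higher and SBPASE lower, and nothing is read from this count, since the genes were chosen on this contrast. Among probes with 1 gene symbol the share was 29.8%. With pairs averaged, 4.3% of all probes (2.4% higher in psan) and 1 of the 4 genes, AT5G58330, were past it. With a random block for the pair, 14.6% of all probes (7.29% higher) and the same 3 genes were past it. Without WT arrays 1 and 2, 30.2% of all probes and all 4 genes were past it, PRK being the added one. Among 2243 probes above 0 on all arrays, the deposited values of the genotypes did not overlap with psan higher for 17%, as for AT5G58330 and AT5G17630, and with psan lower for 7.4%. On the normalised values these shares were 10.3% with psan higher, as for the same 2 genes, and 14.2% with psan lower, as for SBPASE. The log2 fold changes of AT5G17630 and AT5G58330 stood at the 94.7 and 94.0 percentile of all probes, that of PRK at the 69.7 and that of SBPASE at the 10.5 percentile.

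The size of the differences moved with the scaling of the arrays. Over all probes the log2 fold change had a median of 0.46 on the values as deposited, -0.015 after quantile normalisation and -0.20 with median centring, which sets the median of every array to the same value. AT5G58330 had 2.02 as deposited and 1.34 with median centring, and AT5G17630 had 2.53 and 1.85. SBPASE had -0.95 as deposited and -1.63 with median centring. None of these 3 turned sign under any of the 25 alternatives run. Among these, leaving out dim probes, blocks and averaged pairs alone could not change a fold change of these genes. PRK had 0.63 as deposited, 0.62 with cyclic loess and -0.049 with median centring, so its direction was not settled by these data. The same 3 genes were past the limma threshold as deposited, where 29.8% of all probes were (22.3% higher and 7.52% lower in psan). They were so too with median centring, where 30.1% were (10.1% higher and 20.1% lower), and with the probe number corrected, where 23.2% were.

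The fold change over all probes also followed the probe number in a repeating pattern of 24 bins of 12 numbers each, with median log2 fold changes per bin from -0.75 to 0.58. The bin of SBPASE had a median of -0.39 and that of AT5G17630 a median of 0.43, each of the same sign as the gene. PRK and AT5G58330 lay in bins with medians of -0.17 and -0.13. The correction for the probe number subtracted, on each array, the median deviation by bin and also by position within the 12 numbers of a bin. After it, SBPASE had a log2 fold change of -1.02 and AT5G17630 had 1.66. PRK had 0.73 and AT5G58330 had 2.0 after the same correction. SBPASE and AT5G17630 thus came closer to 0, and PRK and AT5G58330 moved away from it.

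**Figure D3:**
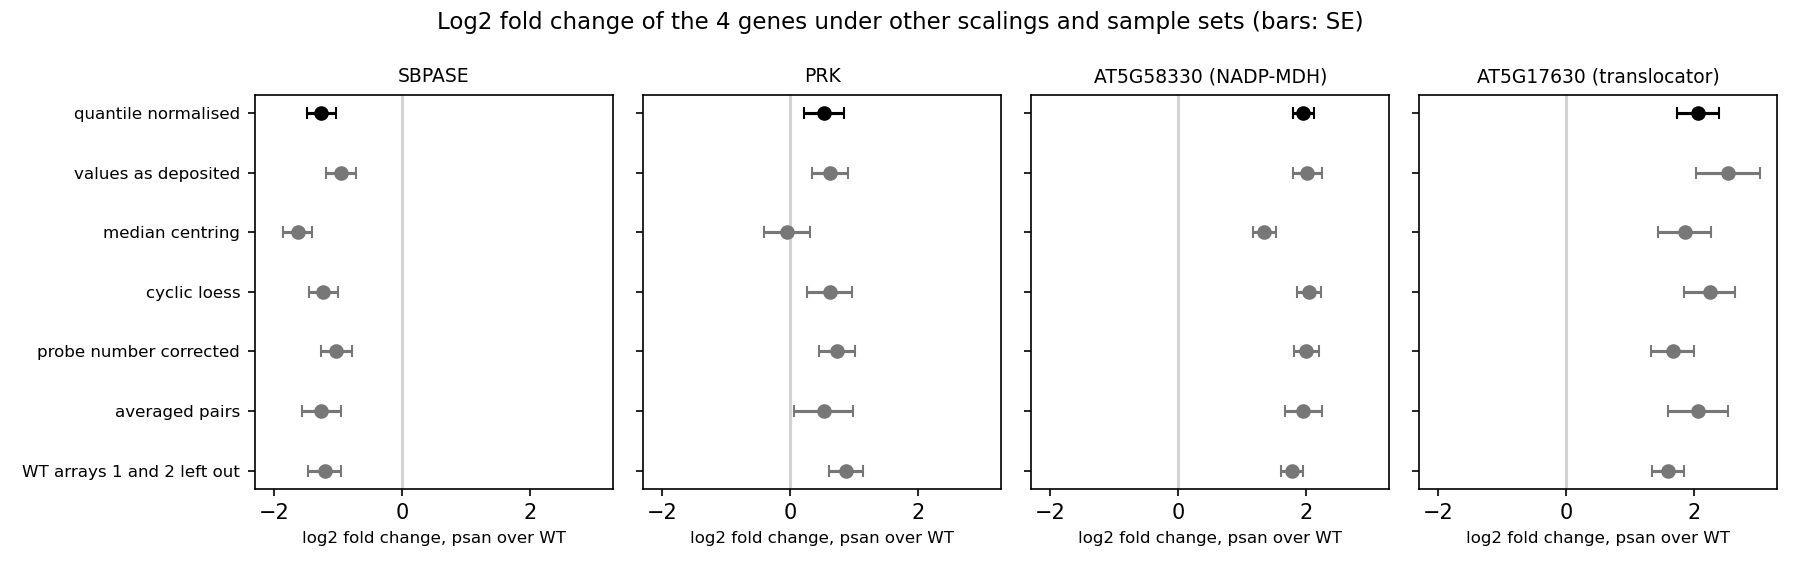
Log2 fold change (psan over WT) of the 4 genes, with SE bars, after quantile normalisation (black) and under 6 other scalings or sets of arrays (gray). SBPASE stays below 0 and AT5G58330 and AT5G17630 stay above 0 in all 7, while PRK reaches -0.049 with median centring.

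A ratio of 2 probes on the same array does not depend on the overall scaling of that array, and its difference between genotypes shows how unequally the 2 genes differed. The level of such a ratio says nothing by itself, since probes differ in brightness. All 6 ratios between the 4 genes were computed from deposited intensities, with no test. Since the genes were chosen on this contrast, a ratio that separates the genotypes follows from the choice. The share of other probe couples that separate them is not given. Of the 2243 single probes above 0 on all arrays, 17% separated them as deposited with psan higher and 7.4% with psan lower.

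The ratio of the malate valve enzyme to SBPASE did not overlap between the genotypes, as could follow from the choice of these genes. The log2 ratio of AT5G58330 over SBPASE was 3.03, 3.17, 2.53, 3.70, 3.22 and 3.02 on psan arrays 1 to 6, and -0.104, -0.172, 0.683, 0.430, -0.141 and 0.162 on WT arrays 1 to 6. It averaged 3.11 ± 0.377 in psan and 0.143 ± 0.351 in WT (SD, n = 6 each), a difference of 2.97 or 7.84-fold. Without WT arrays 1 and 2 the difference was 2.83. The nearest arrays of the genotypes were at 2.53 and 0.683. WT arrays 1 and 2 did not stand apart in this ratio.

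The ratio of the translocator to SBPASE also left no overlap, but over a wider spread. The log2 ratio of AT5G17630 over SBPASE ran from 0.360 to 2.24 on psan arrays, with a median of 1.85, and from -3.48 to -0.537 on WT arrays, with a median of -1.54. The difference of the means was 3.48 or 11.1-fold, and 2.84 without WT arrays 1 and 2. The 2 arrays nearest to each other were psan array 3 and WT array 4.

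Ratios to PRK were less clear. The log2 ratio of AT5G58330 over PRK averaged 0.938 ± 0.443 in psan and -0.455 ± 0.921 in WT (SD, n = 6 each), and 5 of 6 psan arrays lay above all WT arrays. That of AT5G17630 over PRK averaged -0.526 ± 0.835 in psan and -2.43 ± 1.69 in WT (SD, n = 6 each), and 3 of 6 psan arrays lay above all WT arrays. These differences rested in part on WT arrays 1 and 2, where PRK was highest and AT5G58330 and AT5G17630 were lowest among WT arrays. Without them the difference was 0.81 for AT5G58330 over PRK, against 1.39 with all arrays, and 0.82 for AT5G17630 over PRK, against 1.90 with all arrays.

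Within the Calvin cycle, the 2 enzymes differed unequally between the genotypes. The log2 ratio of PRK over SBPASE was 2.63, 2.32, 1.87, 2.94, 1.78 and 1.51 on psan arrays 1 to 6, and 1.39, 1.56, 0.484, 0.543, -0.0823 and -0.304 on WT arrays 1 to 6. The difference of the means was 1.58 or 2.99-fold, and 2.02 without WT arrays 1 and 2. Of the psan arrays, 5 lay above all WT arrays, and array 6 of psan lay below WT array 2. The log2 ratio of AT5G58330 over AT5G17630 averaged 1.46 ± 0.495 in psan and 1.97 ± 0.871 in WT (SD, n = 6 each). This difference of -0.51 was smaller than the pooled SD of 0.71, and without WT arrays 1 and 2 it was -0.0064. After quantile normalisation the log2 fold changes of AT5G58330 and AT5G17630 lay closer together, at 1.96 and 2.06, than as deposited, at 2.02 and 2.53.

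**Figure D4:**
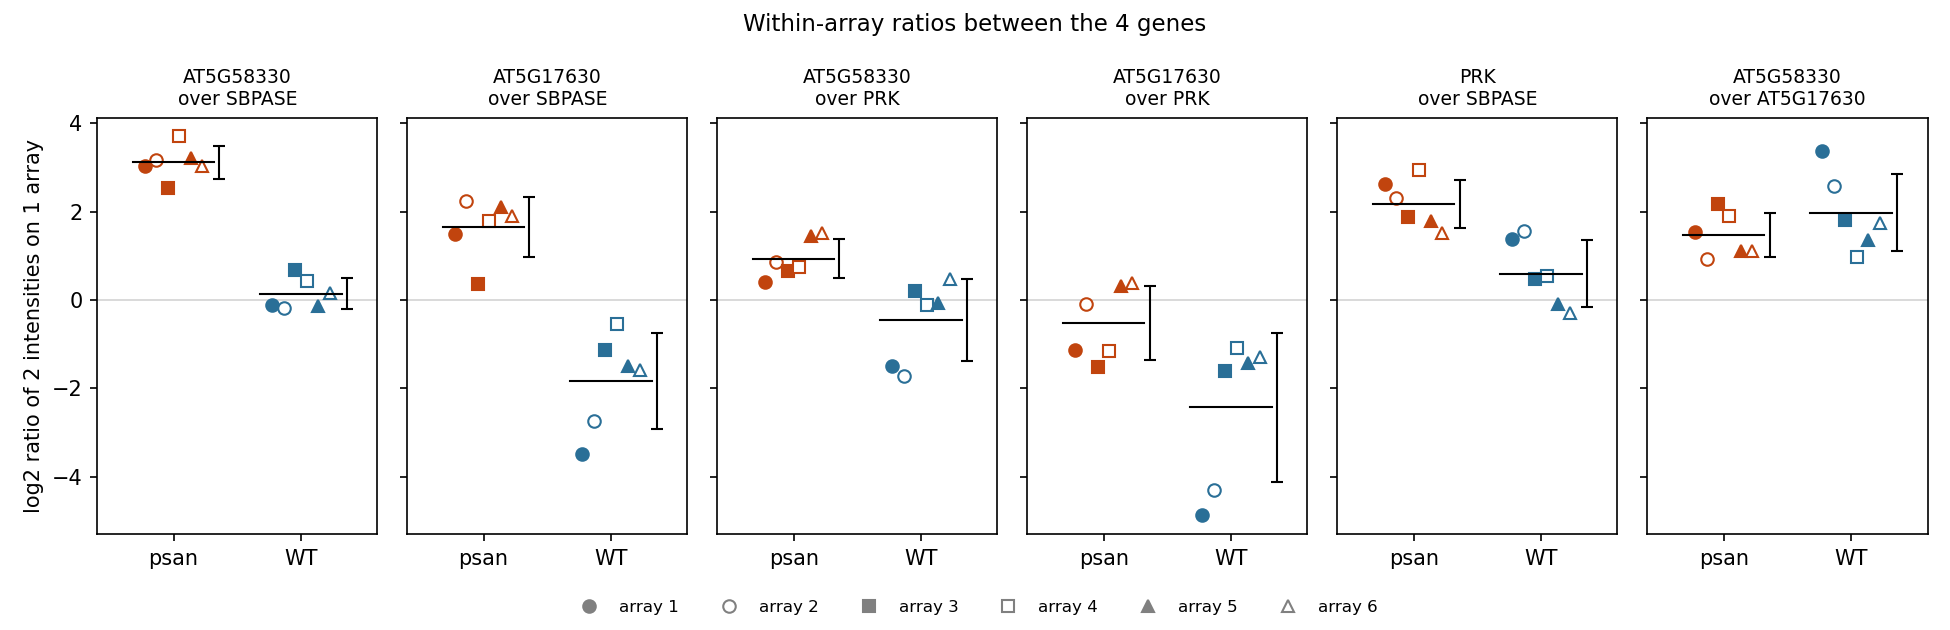
Log2 ratio of the deposited intensities of 2 genes on the same array, for all 6 couples of the 4 genes on the 6 psan and 6 WT arrays, with the mean (line) and SD (bar) of each genotype. AT5G58330 over SBPASE and AT5G17630 over SBPASE separate the genotypes without overlap. In the ratios with AT5G17630 or PRK the WT arrays 1 and 2 lie apart from the other WT arrays.

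Arrays of a pair resembled each other for most of these genes. The normalised log2 signal of PRK differed by a median of 0.177 within the 3 psan pairs and 0.153 within the 3 WT pairs, against 0.705 and 0.941 between arrays of different pairs. PRK therefore varied mainly between pairs, with pair means of deposited intensity of 2.41, 2.64 and 1.54 in psan and 2.14, 1.2 and 1.03 in WT. SBPASE was the exception in psan, where arrays 3 and 4 differed by 1.31 on the log2 scale, more than any of the 12 couples of psan arrays from different pairs (at most 1.17). Without psan array 3 its log2 fold change was -1.44. Within psan AT5G58330 varied least, with differences of at most 0.123 within pairs and 0.356 between them. For AT5G17630 in WT, the highest difference was 0.657 within pairs and 1.98 between them, and the pair means of deposited intensity were 0.0928, 0.484 and 0.402.

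The likeness of patterns was measured as the root mean square difference over the 12 arrays, after centring each normalised log2 signal on its own mean. AT5G58330 and AT5G17630 were the closest couple among the 4 genes, with 0.482. SBPASE and AT5G17630 were the farthest apart, with 1.79, and SBPASE and PRK, of the same cycle, were 1.06 apart. Over the 425 other genes with a single-gene probe above 0 on all arrays, the median difference was 1.2 from AT5G58330 and 1.33 from AT5G17630. It was 0.939 from SBPASE and 0.895 from PRK. All these distances include the difference between genotypes on which the 4 genes were chosen, so they follow in part from the choice.

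The genes nearest to AT5G58330 were ATSIK (0.249), AT5G63290 (0.283) and AT5G11650 (0.344), with log2 fold changes of 1.86, 2.23 and 1.74. Nearest to AT5G17630 were AT5G52810 (0.251), AT5G63290 again (0.388) and AT3G50270 (0.412), with log2 fold changes of 2.09, 2.23 and 1.53. These genes were picked for their likeness, so their fold changes follow from the choice. Nearest to SBPASE were AT2G21960 (0.342), GH9B11, a glycosyl hydrolase gene (0.374), and AT2G28660 (0.392), with log2 fold changes of -1.15, -0.96 and -1.56. As deposited, that of GH9B11 was -0.19. Nearest to PRK were AT2G04790 (0.312), AT4G24750 (0.330) and AT2G01400 (0.339), with log2 fold changes of 0.81, 0.67 and 0.14.

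The rest of these pathways was thinly covered by probes with 1 gene symbol. Of 25 Calvin cycle genes only SBPASE and PRK had one, of 25 genes of malate metabolism and transport only AT5G58330, and of 11 plastid sugar and phosphate transporters only AT5G17630. The lists of the oxidative pentose phosphate pathway (16 genes), the plastid thioredoxin system and ferredoxin (18), starch and sucrose synthesis (20), photorespiration (17) and rubisco assembly (9) added 6 genes. Of these 6, 1 rose and 1 fell (limma, adjusted over all probes), or 33.3%, against 29.9% of all probes. With averaged pairs 0 of 6 passed with limma, and 2 of 6 had an unadjusted p under 0.05, as did 26.8% of all probes. With the probe number corrected as well, 3 of 6 had an unadjusted p under 0.05, as did 21.8% of all probes. The median log2 fold change of the 6 was 0.26, against -0.015 over all probes.

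In the thioredoxin list, AT2G04700 fell. Its deposited intensity was 0.683, 0.321, 0.491, 0.413, 0.500 and 0.471 on psan arrays 1 to 6, and 0.605, 0.634, 0.665, 0.710, 0.731 and 0.704 on WT arrays 1 to 6. Of the psan arrays, 5 lay below all WT arrays, psan array 1 being the exception. The log2 fold change was -0.86 ± 0.21 (SE) with a limma adjusted p of 0.00888. The call ended as deposited (-0.53, limma adjusted p = 0.0687), with averaged pairs (0.120), with a random block for the pair (0.140) and with the probe number corrected (0.0575).

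NTRC, the NADPH-dependent thioredoxin reductase of the same list, had a deposited intensity of 0.332 ± 0.0721 in psan and 0.181 ± 0.0553 in WT (SD, n = 6 each). These values did not overlap, with psan higher, as for 17% of the 2243 probes above 0 on all arrays. On the normalised scale the genotypes overlapped, and the log2 fold change of 0.27 ± 0.20 (SE) did not pass (limma adjusted p = 0.348). It passed as deposited (0.91, limma adjusted p = 0.0168) and with the probe number corrected (1.0, limma adjusted p = 0.00564). Its bin of probe numbers had a median log2 fold change of -0.71.

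In the rubisco assembly list, AT3G47650 rose. Its deposited intensity was 3.0, 3.17, 2.11, 1.57, 3.24 and 3.27 on psan arrays 1 to 6, and 0.697, 1.05, 1.21, 1.06, 1.47 and 1.53 on WT arrays 1 to 6. As for 17% of the 2243 probes above 0 on all arrays, the genotypes did not overlap, with psan higher. The psan array closest to WT was array 4. The log2 fold change was 1.12 ± 0.23 (SE) with a limma adjusted p of 0.00317. It did not pass with averaged pairs (limma adjusted p = 0.112) or with median centring (0.54, limma adjusted p = 0.0961).

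ATSPS4F, a sucrose phosphate synthase gene of cytosolic sucrose synthesis, had 1.12 ± 0.236 in psan and 0.709 ± 0.147 in WT (deposited intensity, SD, n = 6 each). Its log2 fold change of 0.44 ± 0.19 (SE) did not pass (limma adjusted p = 0.0932). It passed as deposited (0.66, limma adjusted p = 0.0392) and with the probe number corrected (0.91, limma adjusted p = 0.00211), and was -0.011 with median centring. Over all probes the median log2 fold change was 0.46 as deposited and -0.20 with median centring. LrgB, which encodes a plastid transporter of glycolate and glycerate in photorespiration, had 0.25 ± 0.34 (SE, limma adjusted p = 0.615). AT1G12230 of the pentose phosphate list was listed at 0 on 2 psan and 2 WT arrays and had 0.05 ± 0.80 (SE, limma adjusted p = 0.972).

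**Figure D5:**
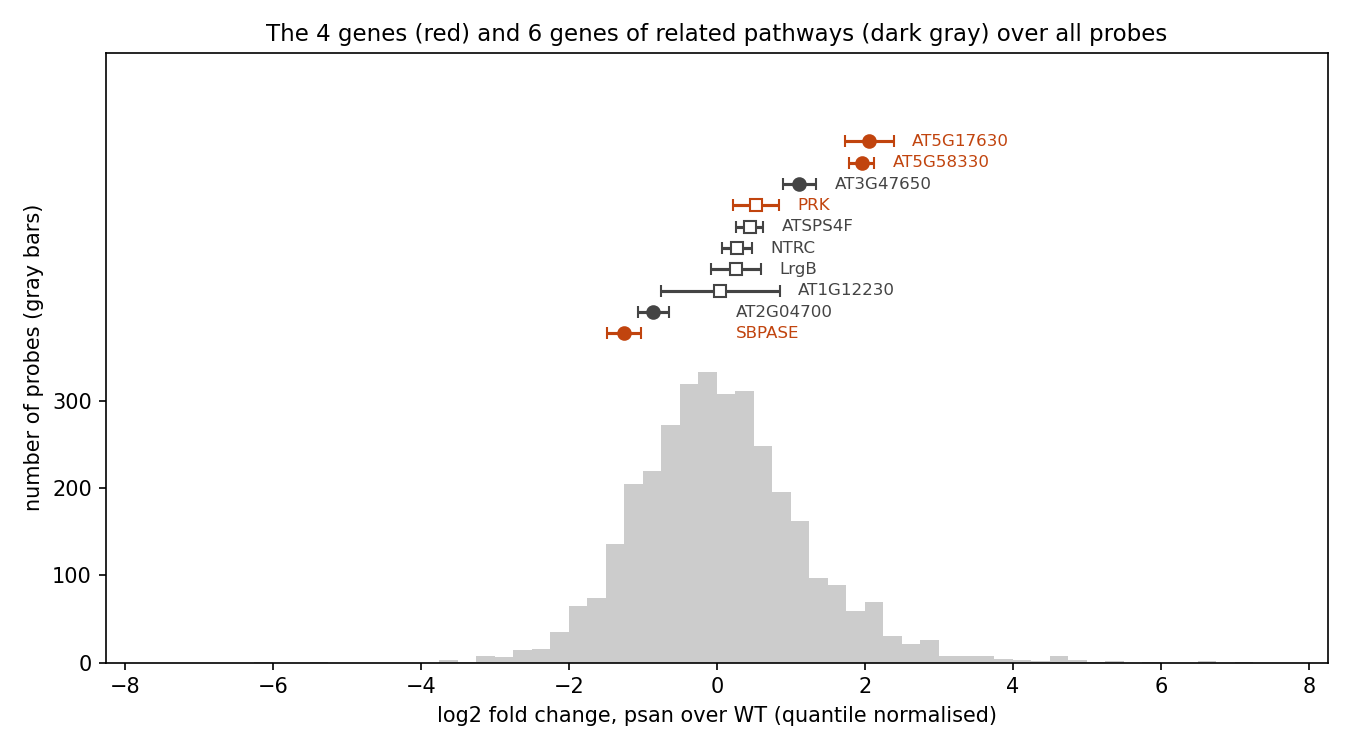
Distribution of the log2 fold change (psan over WT, quantile normalised) of all 3376 probes tested (gray bars, number of probes per 0.25), with the 4 genes (red) and the 6 genes of related pathways (dark gray) above it, each with its SE; filled circles passed the limma threshold and open squares did not, and the height of a point only separates the genes. AT5G58330 and AT5G17630 lie at 1.96 and 2.06, PRK at 0.52 and SBPASE at -1.26.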

How the data were processed

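The authors deposited 1 intensity per probe and array on a linear scale. The sources used here do not say how they made and scaled these values, nor name the array type. Every array's values run from exact 0 to 100 (to 3 digits), and array means lay between 0.834 and 0.980. Sample titles gave the genotype and a number, 1 to 6. The 4 genes and the pathway lists were chosen with earlier results of these data known. Of 3439 probes, the platform annotation gave 692 a single gene symbol, 870 several and 1877 none; 690 of the 692 matched the RefSeq table of assembly TAIR10.1, from which only names were taken. Where a gene had several probes, the brightest stood for it.

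Arrays were quantile normalised, values deposited as 0 were then dropped from the arrays that had them, and limma 3.58.1 under R 4.3.3 fitted psan minus WT on the log2 scale (lmFit, eBayes, two-sided tests), with Benjamini-Hochberg adjustment over the 3376 probes above 0 on at least 1 array of each genotype and a threshold of 0.05. The fit was tested on simulated data with independent arrays. These held no pairs, zeros or dependence on the probe number, so the test does not cover those features of the data. Named genes were the 4, PSAN, every list gene with a single-gene probe (up to 4 a list, by smallest p) and the 3 genes nearest in pattern to each of the 4. Same-numbered arrays of the genotypes correlated with r from -0.155 to 0.228, which gives no pairing. Alternatives were other scalings, a filter, an offset, blocks, averaged pairs, arrays left out and a correction for the probe number. Figures were drawn with matplotlib 3.10.9.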

Additional observations from a re-analysis of the deposited data

Results flagged for a closer look

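Among 56 groups of arrays (normalised log2 signals of the named genes and the 6 ratios, per genotype), 2 held an array far from the others, where chance gives about 2.8. A group held 6 arrays, or 4 for AT1G12230, which was at 0 on the other arrays. The signal of AT2G21960, the gene nearest in pattern to SBPASE, was -2.75 on psan array 3, while the other 5 psan arrays lay between -4.32 and -3.86, so that the gap took 0.710 of the whole range. SBPASE was also highest on psan array 3 among the psan arrays, but its own gap did not reach the limit of 0.625. Since AT2G21960 was picked for its likeness to SBPASE over these same arrays, the shared high array follows in part from the choice. The signal of AT3G50270, near to AT5G17630, was -0.68 on psan array 1, while the other 5 psan arrays lay between -0.23 and -0.085, with a gap of 0.762 of the whole range.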

How the results depend on the processing

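SBPASE, AT5G58330 and AT5G17630 kept their direction under all 25 alternatives, with log2 fold changes from -1.63 to -0.95, 1.34 to 2.05 and 1.59 to 2.53. The filter, the blocks and averaged pairs alone could not change these fold changes, so they add nothing here. Median centring gave -1.63 for SBPASE, 1.34 for AT5G58330 and, turned in sign, -0.049 for PRK; this scaling shifts every probe of an array by the same amount. Leaving out 1 array gave -1.44 to -1.17 for SBPASE, 0.40 to 0.68 for PRK, 1.88 to 2.01 for AT5G58330 and 1.80 to 2.21 for AT5G17630. The difference in the ratio AT5G58330 over AT5G17630, -0.51, turned to 0.11 with an offset and to 0.34 with the probe number corrected, alone or with averaged pairs; the cause was not tested. The other 5 ratios kept their direction under the alternatives that could change them. By construction, values as deposited, median centring, the filter, the blocks and averaged pairs alone left every ratio as it was. The count of probes past the threshold, 1010, was 145 with averaged pairs, 494 with a random block for the pair, 12 (leaving out all 4 genes) when the probe number was corrected and pairs averaged, 586 at an adjusted p under 0.01 and 891 to 980 without 1 array. The sample number as a replicate block gave 896 and left the 4 fold changes as they were; AT1G12230 turned to -0.64 with it. Of the 6 related genes, 2 passed, as did 29.9% of all probes. As deposited 3 passed (29.8% of all probes), and with the probe number corrected 3 (23.2%). With median centring 1 passed (30.1%), and with a random block for the pair 1 (14.6%). With averaged pairs alone 0 passed (4.3%), and 2 had an unadjusted limma p under 0.05 (26.8%). With the probe number corrected and pairs averaged 0 passed, and 3 had an unadjusted limma p under 0.05 (21.8% of all probes). AT1G12230, fitted at 0.05, ran from -0.65 (WT array 3) to 0.45 (WT array 1) when 1 array was left out, with -0.37 without psan array 2 and -0.13 without psan array 4. It was -0.62 with the probe number corrected and -0.46 with averaged pairs as well. ATSPS4F turned to -0.011 with median centring and AT2G01400 to -0.16 with the probe number corrected, alone or with averaged pairs.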
